A study of Mus musculus with 13 samples.

Results

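The 10 genes followed here were Tmem119, P2ry12, Cx3cr1, Trem2, Tyrobp, Csf1r, Aif1, C1qa, C1qb and C1qc, which are 10 of the 48709 gene rows counted in each library. They were taken by symbol from the GENCODE names of the count rows, and all 10 passed the filter on low counts. Trem2, Cx3cr1, P2ry12 and Tmem119 were treated as microglia-restricted within the nervous system, and Tyrobp, Csf1r, Aif1 and the C1q chains as general myeloid genes. Outside it, Cx3cr1 and Trem2 are also found in some blood and tissue macrophages. The libraries were made from spinal motoneurons of SOD1-G93A mice, which carry a mutant human SOD1 transgene and model amyotrophic lateral sclerosis. All 13 mice carried the transgene and were killed at 65 days of age. On postnatal day 2, 4 of them were injected into the cerebral ventricles with AAV-miR SOD1, an adeno-associated virus (AAV) built to make an artificial microRNA against human SOD1 within astrocytes. Another 5 were injected in the same way with the control vector AAV-miR ctrl, and 4 littermates were non-injected. The comparisons ask how these myeloid transcripts differed with the anti-SOD1 vector, and with injection of a control vector, in tissue captured as motoneurons.

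Several features limit what the libraries can show. Each library is 1 pool of 500 motoneurons from 1 mouse, cut by laser from cresyl violet-stained lumbar sections in which the cord was still inside its vertebrae. No mouse without the transgene is among the libraries, so a level in healthy motoneuron pools is not known here. The capture was aimed at motoneurons and no step selected microglia. The RNA was amplified as full-length cDNA from a few nanograms, without molecular identifiers named in the labels, so counts are not independent molecules. In these bulk samples, fewer cells of a type and less RNA per cell cannot be told apart.

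Microglia are the resident macrophages of the brain and spinal cord. Colony-stimulating factor signals reach them through the receptor CSF1R, neurons signal to them through the chemokine CX3CL1 and its receptor CX3CR1, and the purinergic receptor P2RY12 and the membrane protein TMEM119 mark their resting, homeostatic state. TREM2 is a lipid-sensing receptor that signals through the adaptor TYROBP (also DAP12), whose phosphorylated motif recruits the kinase SYK, and TYROBP also serves receptors of monocytes, neutrophils, natural killer cells and osteoclasts. C1q, the recognition part of the classical complement pathway, is assembled from the chains encoded by C1qa, C1qb and C1qc, and in the nervous system it comes mainly from microglia. In mutant SOD1 mice, microglia around degenerating motoneurons are known to lose homeostatic transcripts and gain a disease-associated set that depends on TREM2 and includes Apoe, Clec7a, Lpl and Spp1.

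The C1q chain genes lie beside each other on chromosome 4 of GRCm38, all on the minus strand, C1qb at 136880129-136886187, C1qc at 136889804-136893065 and C1qa at 136895917-136898803. The stretches ahead of C1qb and C1qc are printed because these chains moved together more closely than the other members. That of P2ry12 is printed because its level parted from that of Tmem119, the other homeostatic marker, most in AAV-miR ctrl 5 and non-injected 5. All these stretches are RefSeq sequence of GRCm38.p6, written 5′ to 3′ on the gene's own minus strand. Capitals mark the motif GAGGAA or its reverse complement TTCCTC, the purine-rich core bound by the myeloid factor PU.1, searched on both strands.
C1qb, chr4:136886201-136886300: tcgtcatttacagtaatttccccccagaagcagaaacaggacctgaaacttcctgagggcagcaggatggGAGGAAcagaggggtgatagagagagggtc
C1qc, chr4:136893066-136893164: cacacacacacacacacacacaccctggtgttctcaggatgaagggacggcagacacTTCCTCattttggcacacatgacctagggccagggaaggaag
P2ry12, chr3:59262986-59263085: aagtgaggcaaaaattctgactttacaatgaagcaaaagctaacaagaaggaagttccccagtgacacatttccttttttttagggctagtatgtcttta
A window of 250 bases ahead of the start was at hand for 6 of the 10 members (C1qb, C1qc, P2ry12, Cx3cr1, Aif1 and Trem2), and 4 of the 6 held the motif, against 23.3% of 32851 windows of that length. P2ry12 and Cx3cr1 held none, which says only that these letters are not in the window. A match is a description of the sequence and not a binding site.

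Across the libraries, genes took between 13.9 and 37.4 megacounts. The 4 libraries numbered 5 or 6, all controls, were the deepest (29.7 to 37.4 megacounts, against 13.9 to 23.1 in the other 9), so depth and treatment cannot be told apart there. Levels are CPM, the counts of a gene as a share of its library after TMM scaling, at which 3 counts correspond to between 0.0802 and 0.216 CPM. The column headers of 2 tables went against their labels: the library labelled AAV-miR ctrl 3 carried the header of a non-injected mouse and the library labelled non-injected 3 that of an AAV-miR ctrl mouse. The labels were followed, and several, though not all, of the results that rest on these libraries are given below with the exchange or without both. Another 2 libraries set the extremes of most members: AAV-miR ctrl 1 was highest of all 13 for 6 members (C1qa, C1qc, Aif1, Csf1r, Cx3cr1 and P2ry12), and non-injected 3, one of the libraries with a contradicting header, was lowest for 7 (Tyrobp, C1qa, C1qb, C1qc, Csf1r, Cx3cr1 and Tmem119). Motoneuron markers were present in every library (Chat between 39.1 and 155 CPM), and so were neutrophil, erythroid and bone-forming cell transcripts (S100a8 between 2296 and 24383 CPM, Col1a1 between 1382 and 10528 CPM).

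All 10 members had a higher fitted mean in the AAV-miR SOD1 libraries than in either control group, by a median log2 fold change of 0.35 against AAV-miR ctrl (range 0.03 to 0.79) and 0.72 against non-injected mice (range 0.28 to 1.33). Over all 17403 genes tested the medians were -0.05 and -0.09. The first of the members' medians was 0.60 without AAV-miR ctrl 1 and 0.13 in libraries numbered 1 to 4. With the contradicting libraries exchanged it was 0.54, and without both it was 0.40. The second was 0.46 without non-injected 3, 0.88 without non-injected 5 and 1.00 in libraries numbered 1 to 4. With the exchange it was 0.45, and without both it was 0.54. No member and no gene had an adjusted p under 0.05 in any comparison by edgeR's quasi-likelihood test, so none of these differences is called a change. At an unadjusted p under 0.05, Tyrobp and Trem2 were higher against AAV-miR ctrl (2 of 10 members, where 5.99% of all genes tested were higher by that rule). Against non-injected mice, Tyrobp, Trem2, C1qb, Aif1 and Cx3cr1 were (5 of 10, background 9.36%). Against both control groups together, Tyrobp, Trem2, Aif1 and Cx3cr1 were (4 of 10, background 10.2%). Between the controls, Cx3cr1 alone was higher in AAV-miR ctrl libraries (1 of 10, background 1.38%). No member was lower by that rule, where 8.54%, 11.5%, 12.1% and 2.24% of all genes were, in the order of these comparisons. The treated libraries did not overlap the non-injected ones for Tyrobp, C1qb, Aif1 and Cx3cr1 (4 of 10, where 5.9% of all genes stood higher in that way), and overlapped the AAV-miR ctrl libraries for every member (0 of 10, background 1.27%). The comparisons share libraries, so their counts are not independent.

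These counts moved with single libraries. Against AAV-miR ctrl the count was 0 without AAV-miR SOD1 2, 4 without AAV-miR ctrl 1, and 1 without any one of AAV-miR SOD1 1, AAV-miR SOD1 4 or AAV-miR ctrl 3, 4, 5 or 6. Against non-injected mice it was 2 without AAV-miR SOD1 2 or without non-injected 3, and against both control groups it was 2 without AAV-miR SOD1 2. Between the controls it was 2 without non-injected 5.

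Other fits made adjusted calls, among many genes. Without AAV-miR ctrl 1, edgeR's adjusted p against both control groups was 0.0203 for Tyrobp and 0.0248 for Cx3cr1, which are then past the threshold with 9.84% of all genes. DESeq2 on all libraries gave adjusted p-values under 0.05 against both control groups for Tyrobp (0.0275), Trem2 (0.0275) and Cx3cr1 (0.0314), where it called 10.4% of the genes given an adjusted p, and limma-voom with library quality weights did so for Tyrobp (0.0313) and Cx3cr1 (0.0336), where it called 8.4%.

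**Figure D1:**
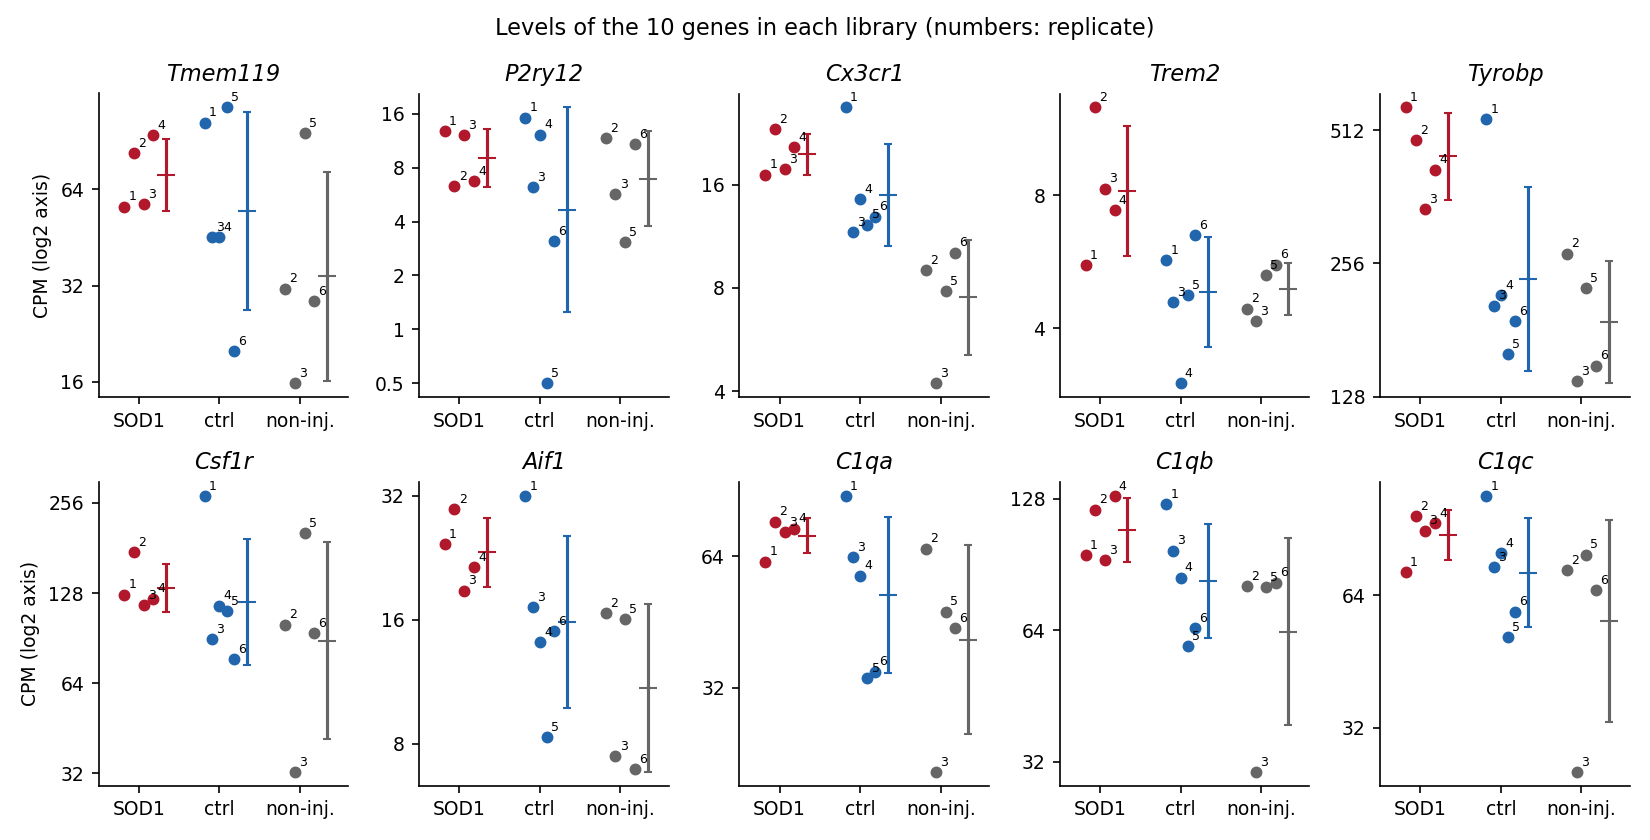
Level of each of the 10 genes in each library (CPM, log2 axis) for the AAV-miR SOD1 (SOD1), AAV-miR ctrl (ctrl) and non-injected groups. Points are libraries with their replicate number, and the bar beside each group is the mean ± SD of log2 CPM. The 4 AAV-miR SOD1 libraries lie close together for most genes, while AAV-miR ctrl 1 and non-injected 3 stand at the ends for many of them.

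Levels between genes are compared per kilobase of each gene's principal transcript. The median over the 13 libraries, in CPM per kilobase, was highest for Tyrobp at 400, followed by C1qb at 77.6, C1qc at 61.7 and C1qa at 59.8. Tmem119 at 25.2, Csf1r at 24.7 and Aif1 at 19.0 formed a middle range. Trem2 at 5.12, Cx3cr1 at 2.88 and P2ry12 at 2.86 were lowest. The SDs over libraries were 274 for Tyrobp, 25.4 for C1qb, 17.7 for C1qc, 19.0 for C1qa, 15.1 for Tmem119, 12.8 for Csf1r, 8.98 for Aif1, 2.24 for Trem2, 1.44 for Cx3cr1 and 1.94 for P2ry12. Neighbours among the C1q chains, among Tmem119, Csf1r and Aif1, and between Cx3cr1 and P2ry12 differed by less than these SDs. The adaptor Tyrobp was above its receptor Trem2 in every library, by a ratio per kilobase between 52.1 and 199.7. Trem2 has the least certain length of the 10, since its annotated exons together span 4946 bases and its principal transcript 1088. Per kilobase of all annotated exons its median was 1.13, below Cx3cr1 (2.87) in 13 libraries and below P2ry12 in 10, and the ratio of Tyrobp to Trem2 was 200.2 to 768. On that scale C1qc, at 38.4, was also below C1qa, at 59.8, so these places in the order depend on the length used.

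Tmem119, the membrane protein used to tell microglia from other macrophages, (GRCm38 chromosome 5, 113793729-113800516, minus strand) had levels of 56.5, 82.8, 57.3 and 94.5 CPM in the treated libraries 1 to 4. The AAV-miR ctrl libraries 1, 3, 4, 5 and 6 held 103, 45.3, 45.4, 115 and 20.0 CPM, and the non-injected libraries 2, 3, 5 and 6 held 31.3, 15.8, 95.9 and 28.6 CPM. The treated libraries sat inside the range of the controls, which was wide in both control groups. Relative to AAV-miR ctrl it differed by 0.14 ± 0.52 (SE, n = 4 and 5) in log2 units and 0.76 ± 0.56 (SE, n = 4 and 4) against non-injected mice, with adjusted p of 0.929 and 0.459 by edgeR. The second value was 1.56 without non-injected 5 and 0.48 without non-injected 3.

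P2ry12 (chromosome 3, 59216272-59262871, minus strand), the purinergic receptor that guides microglial processes toward injury, was at 12.8, 6.29, 12.1 and 6.70 CPM in the AAV-miR SOD1 libraries. It was at 15.2, 6.22, 12.2, 0.50 and 3.11 CPM in the AAV-miR ctrl libraries and at 11.7, 5.69, 3.07 and 10.8 CPM in the non-injected libraries. The groups overlapped throughout, and AAV-miR ctrl 5, with 19 counts, was far below all others. The log2 fold changes of 0.36 ± 0.68 (SE) and 0.28 ± 0.71 (SE) against the AAV-miR ctrl and non-injected groups were smaller than their errors.

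These markers of homeostatic microglia did not follow each other in every library. AAV-miR ctrl 5 had the highest Tmem119 and the lowest P2ry12 of the 13 libraries, and the ratio of Tmem119 to P2ry12 per kilobase was 241 there, 32.7 in non-injected 5 and between 2.77 and 14.8 in the other 11 libraries. Their correlation over the 13 libraries was -0.22 (Pearson, log2 CPM, given as a description). It was not computed without AAV-miR ctrl 5, where P2ry12 had 19 counts, so its sign may rest on that library. Tmem119 is also known as a gene of osteoblasts, the bone-forming cells, and the 5 libraries with the most Tmem119 (AAV-miR ctrl 5, AAV-miR ctrl 1, non-injected 5, AAV-miR SOD1 4 and AAV-miR SOD1 2) were the 5 with the highest summed level of 10 osteoblast genes, a list made after the values were seen. That sum ran from 6780 to 16741 CPM in the treated libraries, 5027 to 26246 in AAV-miR ctrl and 3518 to 18397 in non-injected libraries, and all 10 genes of the list were detected well enough to be tested. The part of bone RNA in the Tmem119 level was not tested.

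**Figure D2:**
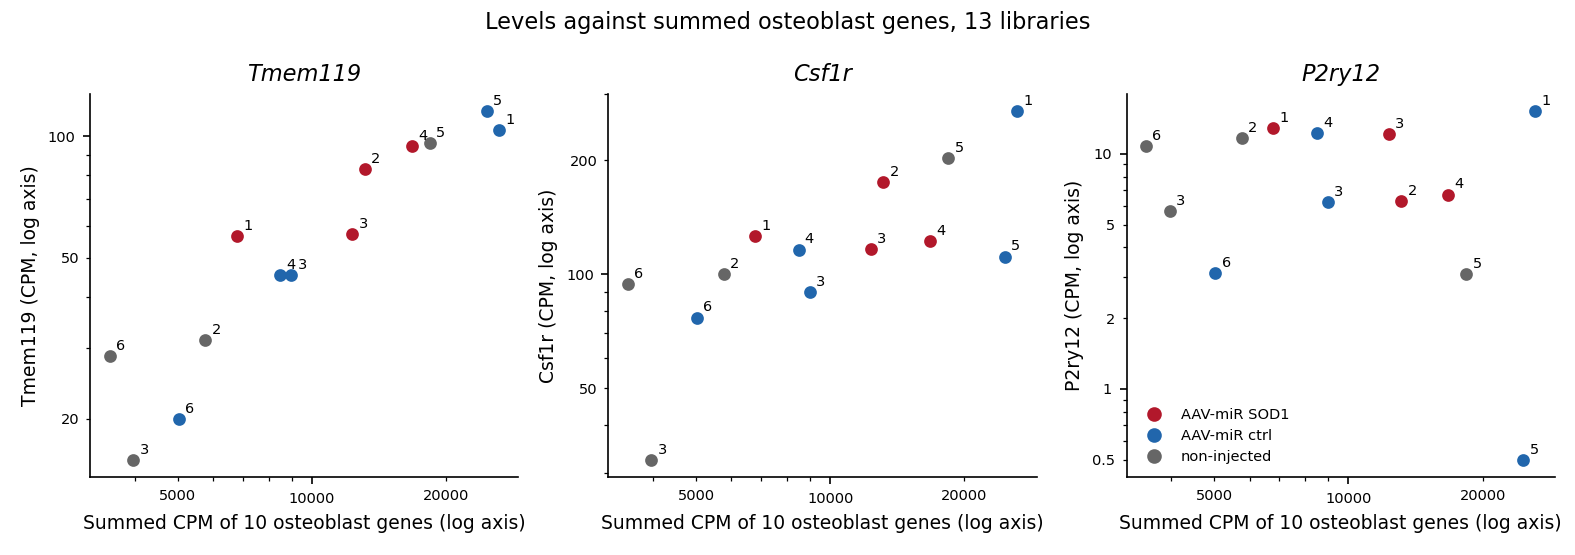
Tmem119, Csf1r and P2ry12 (CPM, log axis) against the summed CPM of 10 osteoblast genes (log axis) in the 13 libraries, coloured by group and marked with the replicate number. The 5 libraries with the highest osteoblast sum have the highest Tmem119, while P2ry12 is lowest in AAV-miR ctrl 5, one of those libraries.

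Cx3cr1 (chromosome 9, 119901616-120069879, minus strand), the receptor for the neuronal chemokine CX3CL1, was at 17.1, 23.3, 17.8 and 20.6 CPM in the AAV-miR SOD1 libraries. The AAV-miR ctrl libraries held 27.0, 11.7, 14.6, 12.3 and 12.9 CPM and the non-injected libraries 9.04, 4.21, 7.84 and 10.1 CPM. Every injected library, whichever vector it received, was above every non-injected one, and among the injected libraries the treated group was above 4 of 5 AAV-miR ctrl libraries and below AAV-miR ctrl 1. The log2 fold change was 1.33 ± 0.32 (SE) for AAV-miR SOD1 and 1.00 ± 0.30 (SE) for AAV-miR ctrl against non-injected mice, with edgeR unadjusted p of 8.8e-04 and 0.00513 and adjusted p of 0.140 and 0.9999. Between the injected groups it was 0.33 ± 0.29 (SE, adjusted p = 0.634 by edgeR).

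Cx3cr1 was the only member for which the AAV-miR ctrl and non-injected groups did not overlap, where 0.299% of all genes tested stood apart in that direction. This separation rests on the labels of the libraries with contradicting headers. With them exchanged, the log2 fold change between the controls was 0.55 with an edgeR unadjusted p of 0.157, and with both left out it was 0.91 with an unadjusted p of 0.0106. Without AAV-miR ctrl 1 it was 0.72 (unadjusted p = 0.0148) and without non-injected 3 it was 0.80 (unadjusted p = 0.0160), both by edgeR. For AAV-miR SOD1 against non-injected mice the same exchange gave 1.03 (edgeR unadjusted p = 0.0196) and leaving both out gave 1.20 (unadjusted p = 0.00197).

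Trem2 (chromosome 17, 48346401-48354147, plus strand), the lipid-sensing receptor, was at 5.57, 12.7, 8.29 and 7.40 CPM in the AAV-miR SOD1 libraries. It was at 5.70, 4.58, 3.0, 4.76 and 6.50 CPM in the AAV-miR ctrl libraries and at 4.43, 4.16, 5.27 and 5.58 CPM in the non-injected libraries. In the treated group, 3 of 4 libraries were above all 9 controls, and AAV-miR SOD1 1 lay among them. Relative to AAV-miR ctrl it differed by 0.79 ± 0.30 (SE) in log2 units and 0.80 ± 0.32 (SE) against non-injected mice, with edgeR unadjusted p of 0.0188 and 0.0231 and adjusted p of 0.280 and 0.177. The control groups differed by 0.02 ± 0.30 (SE). Without AAV-miR SOD1 2, the highest library, the value against both control groups went from 0.79 to 0.54 and edgeR's unadjusted p from 0.00836 to 0.0677. With counts of 40 to 264 per library, Trem2 was one of the less deeply covered members.

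Tyrobp (chromosome 7, 30413760-30417585, plus strand), the adaptor, was at 576, 486, 339.9 and 417 CPM in the AAV-miR SOD1 libraries. The AAV-miR ctrl libraries held 542.5, 206, 217, 159.8 and 189.8 CPM and the non-injected libraries 269.5, 139, 225 and 150.5 CPM. The treated libraries stood above every control except AAV-miR ctrl 1, whose value was second only to AAV-miR SOD1 1. Relative to AAV-miR ctrl it differed by 0.79 ± 0.35 (SE) in log2 units and 1.21 ± 0.37 (SE) against non-injected mice, with edgeR unadjusted p of 0.0389 and 0.00566 and adjusted p of 0.321 and 0.140. Without AAV-miR ctrl 1 the first of these became 1.24, with an edgeR unadjusted p of 2.7e-04, while in a fit of only libraries numbered 1 to 4 it was 0.50 (unadjusted p = 0.252).

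Tyrobp was highest where monocyte, neutrophil, erythroid and T and NK cell markers were highest. The 5 libraries with the most Tyrobp (AAV-miR SOD1 1, AAV-miR ctrl 1, AAV-miR SOD1 2, AAV-miR SOD1 4 and AAV-miR SOD1 3) were also the 5 with the highest summed level of 7 monocyte genes and of 11 neutrophil granule genes. The monocyte sum ran from 1354 to 3892 CPM in the treated libraries, from 873 to 2985 in AAV-miR ctrl and from 853 to 1186 in non-injected libraries. The neutrophil sum ran from 30160 to 82928, 11003 to 69515 and 15453 to 24626 CPM in the same order. The same 5 libraries also had the highest sums of 9 erythroid genes and of 6 T and NK cell genes. The erythroid sum ran from 21957 to 49955 CPM in the treated libraries and from 3906 to 29079 CPM in the 9 controls. The match is thus not particular to monocytes and neutrophils. The share of all genes with this pattern was not counted, and the part of any of these cells in the Tyrobp level was not tested.

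**Figure D3:**
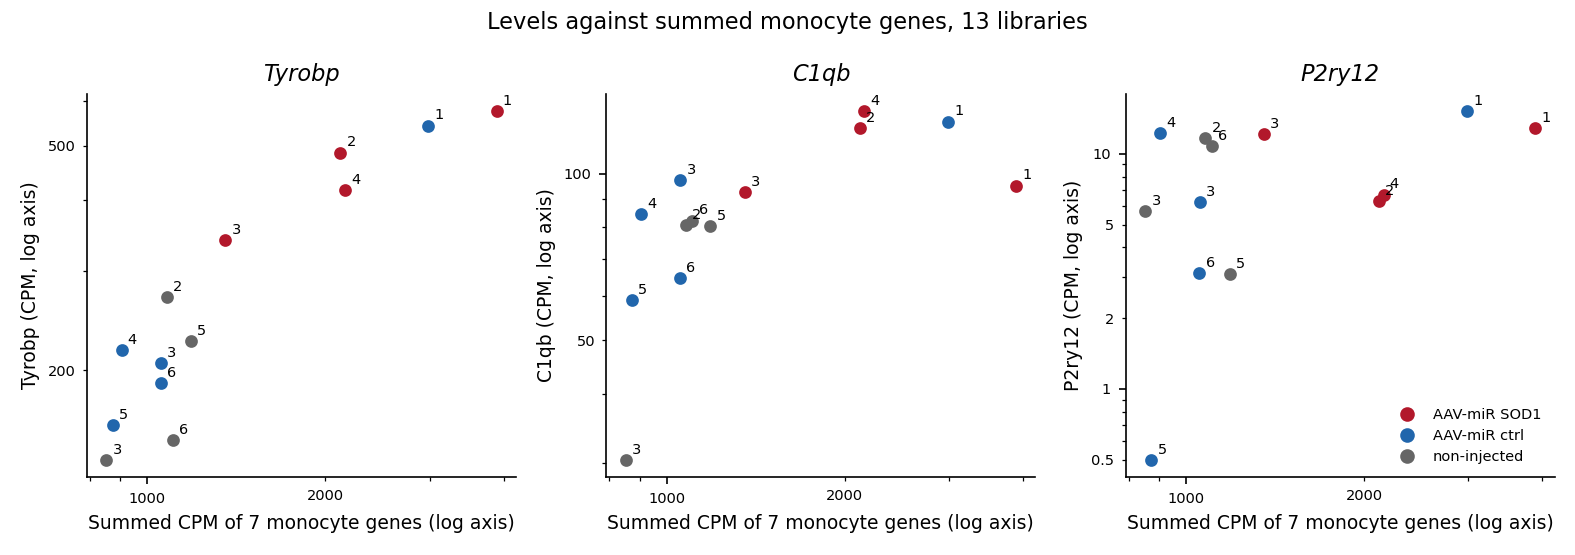
Tyrobp, C1qb and P2ry12 (CPM, log axis) against the summed CPM of 7 monocyte genes (log axis) in the 13 libraries, coloured by group and marked with the replicate number. The 4 AAV-miR SOD1 libraries and AAV-miR ctrl 1 have the highest monocyte sums and the highest Tyrobp, between 339.9 and 576 CPM.

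Csf1r, the receptor that microglia need to survive, was at 126.5, 175, 116.5 and 123 CPM in the AAV-miR SOD1 libraries. It was at 270.1, 89.6, 116, 111.5 and 76.9 CPM in the AAV-miR ctrl libraries and at 100.4, 32.4, 202 and 94.1 CPM in the non-injected libraries. The groups overlapped, and the highest values belonged to AAV-miR ctrl 1, non-injected 5 and AAV-miR SOD1 2. Those were also the 3 libraries with the highest summed level of 6 osteoclast genes, another list made after the values were seen, which ran from 2971 to 4979 CPM in the treated libraries and from 911 to 7086 CPM in the 9 controls. Osteoclasts, the bone-resorbing cells, depend on CSF1R as well, and their part in its level was not tested. Relative to AAV-miR ctrl, Csf1r differed by 0.03 ± 0.44 (SE) in log2 units and 0.33 ± 0.47 (SE) against non-injected mice. Its exons share 873 bases with Hmgxb3 on the other strand, and without a stated strand setting reads there cannot be assigned. Cx3cr1 and P2ry12 share 78 and 9 exon bases with Gm33858 and Med12l in the same way, and the other members share none.

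Aif1 (chromosome 17, 35170991-35176068, minus strand), which encodes the macrophage protein IBA1 used to stain microglia, was at 24.4, 29.7, 18.8 and 21.5 CPM in the AAV-miR SOD1 libraries. It was at 32.0, 17.2, 14.1, 8.31 and 15 CPM in the AAV-miR ctrl libraries and at 16.6, 7.46, 16.1 and 6.95 CPM in the non-injected libraries. The treated libraries were above all controls but AAV-miR ctrl 1, as for Tyrobp, with which Aif1 had a correlation of 0.92 over the 13 libraries. The monocyte, neutrophil, erythroid and T and NK sums stood the same way, and the share of all genes that did was not counted. The log2 fold change of Aif1 was 1.00 ± 0.39 (SE, edgeR unadjusted p = 0.0225, adjusted p = 0.176) against non-injected mice and 0.45 ± 0.37 (SE) against AAV-miR ctrl. The first of these was 0.73 (edgeR unadjusted p = 0.100) with the 2 contradicting libraries exchanged and 0.91 (unadjusted p = 0.0611) without them.

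C1qa was at 62.2, 76.8, 72.6 and 74.1 CPM in the AAV-miR SOD1 libraries, at 88.0, 63.8, 57.8, 33.7 and 34.9 CPM in the AAV-miR ctrl libraries and at 66.6, 20.6, 47.8 and 43.9 CPM in the non-injected libraries. C1qb was at 95.3, 120.9, 92.7 and 130 CPM, then 124, 97.3, 84.4, 59.0 and 64.8 CPM, then 80.8, 30.4, 80.4 and 82.3 CPM in the same order. C1qc was at 72.2, 96.7, 89.5 and 93.1 CPM, then 107, 74.2, 79.5, 51.5 and 58.7 CPM, then 73.0, 25.5, 79.1 and 65.7 CPM. For all these chains AAV-miR ctrl 5 and 6 and non-injected 3 were low and AAV-miR ctrl 1 was high. For C1qb alone the treated libraries stood clear of the non-injected ones, and for each chain they overlapped the AAV-miR ctrl group. With the contradicting libraries exchanged C1qb overlaps too, since AAV-miR ctrl 3 (97.3 CPM) was above AAV-miR SOD1 1 and 3 (95.3 and 92.7 CPM).

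Against non-injected mice the log2 fold changes were 0.68 ± 0.34 (SE) for C1qa, 0.68 ± 0.31 (SE) for C1qb and 0.53 ± 0.31 (SE) for C1qc, with edgeR unadjusted p of 0.0693, 0.0458 and 0.110. Against AAV-miR ctrl they were 0.36 ± 0.32, 0.35 ± 0.29 and 0.24 ± 0.29 (SE). The C1qb difference from non-injected mice rested on few libraries: it was 0.43 (edgeR unadjusted p = 0.113) without non-injected 3, 0.36 (unadjusted p = 0.267) with the contradicting libraries exchanged and 0.51 (unadjusted p = 0.0811) with both left out.

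The chain genes kept close proportions although their level spanned more than 4-fold. Per kilobase, the ratio of C1qa to C1qb was 0.678 ± 0.0934 (SD, n = 13) and that of C1qc to C1qb 0.773 ± 0.0763 (SD, n = 13), with ranges of 0.557 to 0.862 and 0.648 to 0.890. The ratio of C1qa to C1qb was 0.691 ± 0.0937 in AAV-miR SOD1, 0.661 ± 0.0768 in AAV-miR ctrl and 0.688 ± 0.132 in non-injected libraries (SD, n = 4, 5 and 4), so the groups did not differ beyond their spread. The correlations between chains over the 13 libraries were 0.94 to 0.97, against -0.22 to 0.92 for all other pairs of members. Tyrobp varied against C1qb by more, between 3.53 and 11.7 per kilobase, and Csf1r between 0.213 and 0.583. The ratio of Cx3cr1 to C1qb was 0.0384 to 0.0466 in AAV-miR SOD1 and 0.0290 to 0.0525 in AAV-miR ctrl libraries, against 0.0236 to 0.0336 in non-injected libraries. The lowest AAV-miR ctrl ratio (0.0290) and the highest non-injected ratio (0.0336) belonged to the libraries with contradicting headers.

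**Figure D4:**
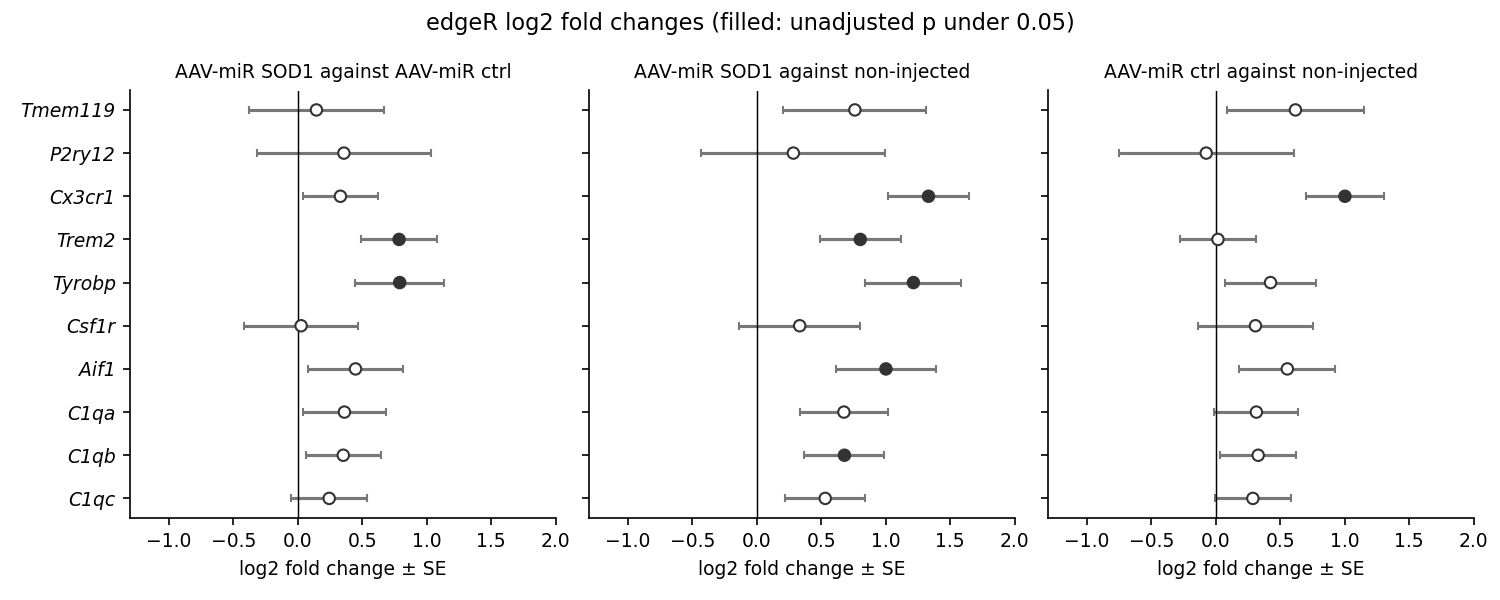
Log2 fold change of each of the 10 genes by edgeR in 3 comparisons, with the standard error as bars and filled points where the unadjusted p was under 0.05. The largest value is that of Cx3cr1 for AAV-miR SOD1 against non-injected mice, 1.33, and no adjusted p was under 0.05.

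The ligands of these receptors were followed with them. Csf1 and Il34, which both bind CSF1R, had log2 fold changes of 0.04 ± 0.33 and 0.29 ± 0.34 (SE) for the treated group against all controls. Cx3cl1, the neuronal ligand of CX3CR1, was at 39.7, 64.8, 34.1 and 71.2 CPM in the AAV-miR SOD1 libraries. It was at 64.3, 72.8, 82.0, 146 and 169 CPM in the AAV-miR ctrl libraries and 46.8, 149, 128 and 104 CPM in the non-injected libraries. The treated libraries were among the lowest but overlapped both control groups, and the log2 fold change was -1.03 ± 0.35 (SE, edgeR unadjusted p = 0.0109). The 7 motoneuron markers had values below 0 in the same comparison, with a median of -1.10 and all 7 at an unadjusted p under 0.05 (background 12.1% lower), Chat at -0.91 ± 0.24 and Slc5a7 at -1.01 ± 0.25 (SE). What the lower neuronal share of counts adds to the members' values was not tested.

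A list of 15 genes of TREM2, TYROBP and CSF1R signalling, which also holds their transcription factors and the ligands above, had 10 at an unadjusted p under 0.05 in the higher direction and 1, Cx3cl1, in the lower, for the treated group against all controls, with a median log2 fold change of 0.84. Over all genes tested, 10.2% were higher and 12.1% lower by that rule, which is also the background for the lists that follow. Fcer1g, the other adaptor with an activating motif, had 1.02 ± 0.28 (SE), the lipid phosphatase gene Inpp5d 1.02 ± 0.31, the tyrosine phosphatase gene Ptpn6 0.92 ± 0.30 and the kinase gene Syk 0.75 ± 0.28. Spi1, which encodes PU.1, had 0.78 ± 0.51 (SE). These genes act in monocytes and neutrophils too, whose markers were higher in the same libraries. Against AAV-miR ctrl alone 3 of the 15 were higher by the same rule (background 5.99%), and no adjusted p was under 0.05 by edgeR.

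Other homeostatic microglial genes differed less. Of 10, Gpr34 and Selplg were higher at an unadjusted p under 0.05 against both control groups, and the median log2 fold change was 0.25. Against AAV-miR ctrl alone the list's median was 0.04, and against non-injected mice it was 0.51. Gpr34, a lysophospholipid receptor, was at 5.48, 4.75, 4.74 and 5.44 CPM in the AAV-miR SOD1 libraries and between 2.26 and 4.32 CPM in the 9 controls. It was the only gene of the list whose treated libraries stood above all controls, where 0.592% of all genes tested did, and its log2 fold change was 0.58 ± 0.24 (SE, edgeR unadjusted p = 0.0273, adjusted p = 0.169). Siglech (0.40 ± 0.42), P2ry13 (0.51 ± 0.44) and Fcrls (-0.48 ± 0.41) had values close to or below their standard errors. Sparc, which osteoblasts also express, ran from 1789 to 9238 CPM in controls and dominated the list's summed level.

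Of 15 disease-associated microglial genes, 4 were higher and 2 lower at an unadjusted p under 0.05 against both control groups, with a median of 0.34. That median was 0.31 against AAV-miR ctrl alone and 0.35 against non-injected mice. Clec7a, the beta-glucan receptor also present on neutrophils and monocytes, was at 52.6, 43.6, 31.4 and 31.8 CPM in the AAV-miR SOD1 libraries. It was at 36.7, 16.0, 20.6, 12.9 and 13.9 CPM in the AAV-miR ctrl libraries and 17.4, 12.3, 13.9 and 7.10 CPM in the non-injected libraries. Again AAV-miR ctrl 1 was the only control among the treated values, as for the monocyte, neutrophil, erythroid and T and NK sums. The log2 fold change against both control groups was 1.33 ± 0.29 (SE). Lgals3 had 0.87 ± 0.24, Ccl6 1.05 ± 0.28 and Lyz2 1.09 ± 0.34 (SE), all of them also expressed by monocytes or neutrophils. Gpnmb (-1.19 ± 0.47) and the protease gene Ctsd (-0.40 ± 0.18) were the 2 lower genes, a share of the list near the background of 12.1%. Apoe (0.08 ± 0.41), Lpl (-0.14 ± 0.43), Spp1 (-0.37 ± 0.36) and Axl (0.21 ± 0.27), central to the TREM2-dependent program, had differences close to or below their standard errors. The cells behind these transcripts were not told apart in the bulk captures, so the list's values are not a reading of microglia alone.

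Beyond C1q, the complement list of 20 genes had 17 that passed the filter, 4 of them higher and 1 lower by that rule against both control groups, with a median of 0.21. Its median was -0.01 against AAV-miR ctrl alone and 0.26 against non-injected mice. The genes higher against both control groups were C5ar1 (0.93 ± 0.30), the receptor for C5a, Itgam (0.84 ± 0.33) and Itgb2 (0.89 ± 0.35), which form complement receptor 3, and the regulator Cr1l (0.40 ± 0.15). The lower one was Cd59a (-0.56 ± 0.19), an inhibitor of the membrane attack complex. The serine proteases that complete the C1 complex, C1ra (0.21 ± 0.32) and C1s1 (0.01 ± 0.39), and the next components C4b (-0.27 ± 0.42) and C3 (0.53 ± 0.35) did not pass at an unadjusted p under 0.05. Itgam was at 52.5, 39.2, 17.1 and 27.6 CPM in the AAV-miR SOD1 libraries and between 10.2 and 38.6 CPM in the controls, so the groups overlapped. Libraries AAV-miR SOD1 1, 2 and 4 and AAV-miR ctrl 1 had the most Itgam and Itgb2. They also had the highest monocyte and neutrophil sums, and the part of those cells in these values was not tested.

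**Figure D5:**
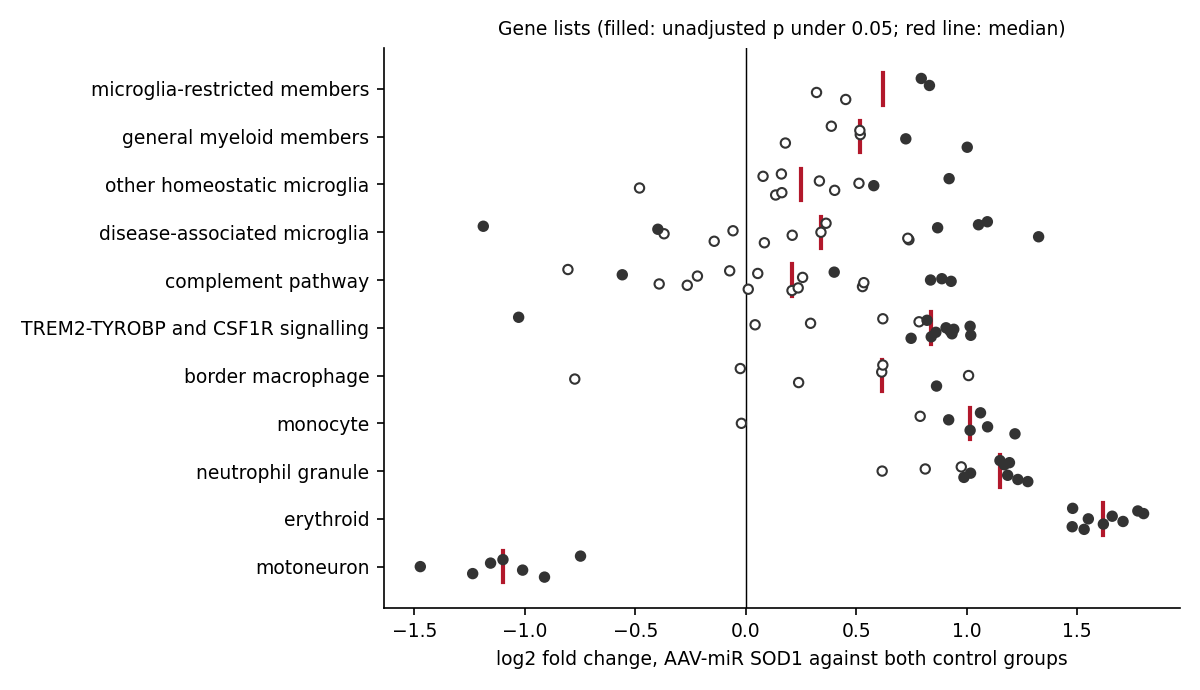
Log2 fold change of each tested gene for the treated group against all controls, by gene list, with filled points where the edgeR unadjusted p was under 0.05 and a red line at each list's median. The medians were 0.62 for the 4 microglia-restricted members and 0.52 for the 6 general myeloid members, against 1.15 for neutrophil granule, 1.62 for erythroid and -1.10 for motoneuron genes.

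Microglia-restricted and general myeloid members differed little in their medians: 0.62 against 0.52 for the treated group against all controls, 0.34 against 0.36 against AAV-miR ctrl, and 0.78 against 0.68 against non-injected mice. The medians hide a spread within each class. Against all controls, Cx3cr1 had 0.83 and Trem2 0.79, while Tmem119 had 0.45 and P2ry12 0.32. The general members ran from 0.18 to 1.00. The classes hold within the nervous system only. Some blood and tissue macrophages express Cx3cr1 and Trem2, and osteoblasts express Tmem119. In captures with hematopoietic and bone transcripts, these medians therefore do not set microglia against other myeloid cells. Marker lists of hematopoietic cells, whose source (blood or vertebral marrow) was not tested, had larger medians against both control groups: 1.02 for 7 monocyte genes (5 higher at an unadjusted p under 0.05), 1.15 for 11 neutrophil granule genes (8 higher), 1.62 for 9 erythroid genes (9 higher), 1.40 for 6 T and NK cell genes (4 higher) and 0.76 for 8 B lineage genes (3 higher). Border macrophage genes had a median of 0.62 with 1 of 7 higher (Mrc1, 0.86 ± 0.32). Astrocyte (-0.29), oligodendrocyte (-0.53) and endothelial (0.05) lists had none higher. Of these, only the astrocyte list had a lower gene (1 of 7, background 12.1%). Osteoblast and osteoclast lists had none in either direction, with medians of 0.43 and 0.32. No gene of any list passed the adjusted threshold in the edgeR fit of all 13 libraries. All defining monocyte markers, such as Ccr2 with 58.3 to 85.9 CPM in the treated group and 19.0 to 78.4 CPM in controls, were present in every library.

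The genes whose pattern over the 13 libraries was most like the mean of the members were Zeb2 (Pearson r = 0.975), H2-K1 (0.967), Gm2a (0.959), B2m (0.955), Leprot (0.951), Psmb8 (0.951), Fxyd5 (0.950), Gas7 (0.945), Tbc1d15 (0.944) and BC147527 (0.943). H2-K1, B2m and Psmb8 belong to antigen presentation by class I molecules. Libraries share depth and cell content, so the values are descriptions, and without non-injected 3 only 4 of the 10 were again among the closest. The members' own mean, in log2 units around each gene's average, was 0.39, 0.66, 0.37 and 0.47 in AAV-miR SOD1 libraries. It was 0.85, -0.07, -0.01, -0.59 and -0.46 in AAV-miR ctrl and -0.05, -1.20, -0.04 and -0.31 in non-injected libraries, so all treated libraries were above all controls except AAV-miR ctrl 1. That held for the monocyte, neutrophil, erythroid and T and NK sums as well, and the share of all genes with this pattern was not counted.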

How the data were processed

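The deposited tables hold raw read counts per gene, made by the authors with cutadapt 1.8, STAR 2.5.2b and HTSeq 0.6.1 on GRCm38, per the submitters' processing notes. The annotation release and strand setting are not given in the sources used here. GENCODE M21 names matched 48349 of 48709 identifiers, and 5 summary rows per table were left out. Groups came from the titles. Nothing beyond the labels' statement of 1 pool per mouse describes the replicates. Counts were tested with edgeR 4.0.16 in R 4.3.3 (filterByExpr with minimum count 10 and minimum total 15, leaving 17403 genes; TMM; quasi-likelihood test on all 13 libraries; Benjamini-Hochberg threshold 0.05). Standard errors were obtained from the fold change and its F statistic, and log2 CPM used a prior count of 2. The fit's common biological coefficient of variation was 0.470. Scripts were tested on simulated data. Alternatives used DESeq2 1.42.0, limma 3.58.1, other scalings, no filter, a replicate block, exchanged or omitted libraries. Beside the members and the partner genes, up to 4 genes per list were to be named if they were past an unadjusted p of 0.05 without overlap; other list genes were named after their values were seen. The members and lists were chosen with earlier results of these data known.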

Additional observations from a re-analysis of the deposited data

Results flagged for a closer look

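In 33 groups of 4 or 5 libraries, 4 held a library far from the rest of its group by Dixon's criterion, where about 1 in 20, or 1.65, would be marked by chance. AAV-miR ctrl 1 stood above its group for Tyrobp (log2 CPM 9.08, the others 7.32 to 7.76) and for Cx3cr1 (4.76, the others 3.55 to 3.87). Non-injected 3, whose header went against its label, stood below its group for C1qb (4.93, the others 6.33 to 6.36) and for C1qc (4.67, the others 6.04 to 6.31).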

How the results depend on the processing

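The adjusted calls depended on the tool. Genes with an adjusted p under 0.05 numbered 0 by edgeR in each comparison, and 180 against AAV-miR ctrl, 1025 against non-injected mice, 2 between the controls and 1521 against both control groups by DESeq2. Limma-voom gave 1461 in the last and the fit without a low-count filter gave 1. At an unadjusted p under 0.05, edgeR's counts were 2529, 3635, 629 and 3870. Leaving out 1 library gave 0 to 1694 genes against both control groups (1694 without AAV-miR ctrl 1, 121 without AAV-miR SOD1 3, 1 without AAV-miR SOD1 4). Members with an adjusted p under 0.05 numbered 2 against non-injected mice (Tyrobp, Cx3cr1) and 3 against both control groups by DESeq2, 2 in the latter by limma-voom, and 0 to 2 with 1 library left out.

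Members at an unadjusted p under 0.05 numbered, against AAV-miR ctrl, 4 by limma-voom, 1 in libraries numbered 1 to 4, 1 without the contradicting libraries (an alternative chosen after seeing the data) and 0 to 4 with 1 library left out. Against non-injected mice they numbered 3 with the exchange, 3 without both and 2 to 6 with 1 left out. Between the controls they numbered 0 with the exchange, 3 in libraries 1 to 4 and 1 to 2 with 1 left out, and against both control groups 2 to 6. Same-numbered libraries did not deviate together in every pair (r from -0.19 to 0.24), so a shared number was not taken to pair libraries. With the replicate number as a block the counts were 2, 3, 1 and 3 in the order above, and P2ry12 turned to -0.89 against non-injected mice and -0.28 against both control groups.

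Other signs that turned belonged to values within their errors. Csf1r against AAV-miR ctrl was -0.23 in libraries 1 to 4, -0.043 without the contradicting libraries, and -0.135 to 0.458 with 1 library left out. P2ry12 in libraries 1 to 4 was -0.24 against AAV-miR ctrl and -0.051 against both control groups, and Tmem119 against AAV-miR ctrl was -0.073 to 0.444 with 1 library left out. Other scalings moved the median of all genes by at most 0.06.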
